A study of Homo sapiens with 15 samples.

Results

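The C/EBP and RUNX factor loci were the 9 genes CEBPA, CEBPB, CEBPD, CEBPE, CEBPG, RUNX1, RUNX2, RUNX3 and CBFB, out of 20007 protein-coding genes in GENCODE v44. Each locus was the annotated gene with 50 kb on each side. The genes were picked by name because the DNA motifs of these factors were enriched among regions open in SETD2 knockout cells and closed again after rescue. Comparisons of KO with WT and of rescue with KO share that contrast, so they are given below as descriptions with no test. Overlapping peaks from the 15 libraries (1 bp or more in common) were joined, and a joined region seen in at least 2 libraries is called a consensus region. The 9 loci held 517 joined regions, of which 425 were consensus regions, out of 295008 consensus regions in the genome.

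The data were ATAC-seq peak lists, in which the Tn5 transposase marks accessible DNA, from RPTEC, an established human renal proximal tubule epithelial line carrying hTERT, with G418 kept in the medium of every group. WT (n = 3 libraries) was the unedited line. KO1 and KO2 (n = 3 each) were each a single clone made by CRISPR/Cas9 with a guide to exon 3 of SETD2, the enzyme that trimethylates histone H3 lysine 36. Rescue1 and Rescue2 (n = 3 each) were single colonies of knockout cells given full-length FLAG-tagged SETD2 by lentivirus and selected with blasticidin, and in the study's sequencing summary the names of both carry the clone prefix of KO2. The labels do not say whether the libraries of a group came from separate cultures, so p-values measure only the spread between libraries of 1 line or clone, which may be technical.

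The lists held 197527 to 266011 peaks per library, covering 49.4 to 65.2 Mb, with WT at the low end and Rescue2 holding the longest list. Bases under peaks in the SETD2 window ran from 6267 to 9355 over the 15 libraries, and a peak list does not show the edited bases, so the labels could not be checked there. Of the kidney tubule markers, PAX8, PAX2, CDH16, KRT8, KRT18, EPCAM and CDH2 had a peak within 1 kb of the start in all 15 libraries, LRP2 in 14, and CUBN, HNF4A, SLC34A1 and AQP1 in none. CDH1, the epithelial cadherin, had one in all 3 WT libraries, 1 of 3 KO2 libraries and none of the KO1, Rescue1 or Rescue2 libraries. PTPRC and CD3E of immune cells and PECAM1 and TEK of endothelium had no start peak in any library, whereas CD14, CDH5, COL1A1 and PDGFRB had one in all 15. DCN of fibroblasts had one in 7 libraries, 3 of KO1, 3 of KO2 and 1 of Rescue1. The part of these markers in the results below was not tested.

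C/EBP proteins are basic leucine zipper factors that bind DNA as dimers. CEBPA drives terminal differentiation in liver, fat and myeloid cells, CEBPB and CEBPD act in acute-phase and inflammatory responses, CEBPE acts late in granulocyte maturation, and CEBPG lacks a classical activation domain and serves mainly as a dimer partner. RUNX1, RUNX2 and RUNX3 bind DNA through the Runt domain and are best known from blood, bone, and neuron and T cell development, while CBFB is their partner that does not itself touch DNA and strengthens binding. Each RUNX gene is transcribed from a distal and a proximal promoter.

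The measure throughout is the number of bases under called peaks. It reports how much of a locus passed the peak caller's threshold, not the height of a peak, and a region without a peak is a region below that threshold. Libraries with longer lists also have more bases at most loci, so differences among WT, KO and rescue are to be read beside the median of all genes, given next. On the log2(bases + 100) scale the median gene differed by -0.005 between KO and WT, by 0.11 between rescue and KO and by 0.11 between rescue and WT. After bases were scaled to the total under all peaks of the library, these medians became -0.12, 0.05 and -0.06. Of the 19207 genes tested, 5437 were called higher and 607 lower in rescue against WT, and after scaling 3214 higher and 6467 lower of 19203. The split moved likewise from 112 higher and 522 lower to 1216 and 1300 for KO1 against KO2, and from 34 and 926 to 1468 and 857 for Rescue1 against Rescue2.

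Per kb of window, CEBPB was the most peak-rich of the 9 loci in WT, at 77.9 ± 8.36 bases per kb (SD, n = 3), above 97.7% of all genes. CEBPE followed at 49.98 ± 2.897 bases per kb. RUNX3 (36.9 ± 2.85), RUNX2 (36.4 ± 1.63) and CBFB (35.3 ± 2.56) came next, and their WT libraries overlapped. CEBPD (28.8 ± 1.73) and RUNX1 (26.0 ± 1.94) overlapped in turn and lay near the median gene, at 30.2 bases per kb. CEBPG (20.9 ± 1.41) and CEBPA (19.2 ± 2.10) were the sparsest and also overlapped.

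**Figure D1:**
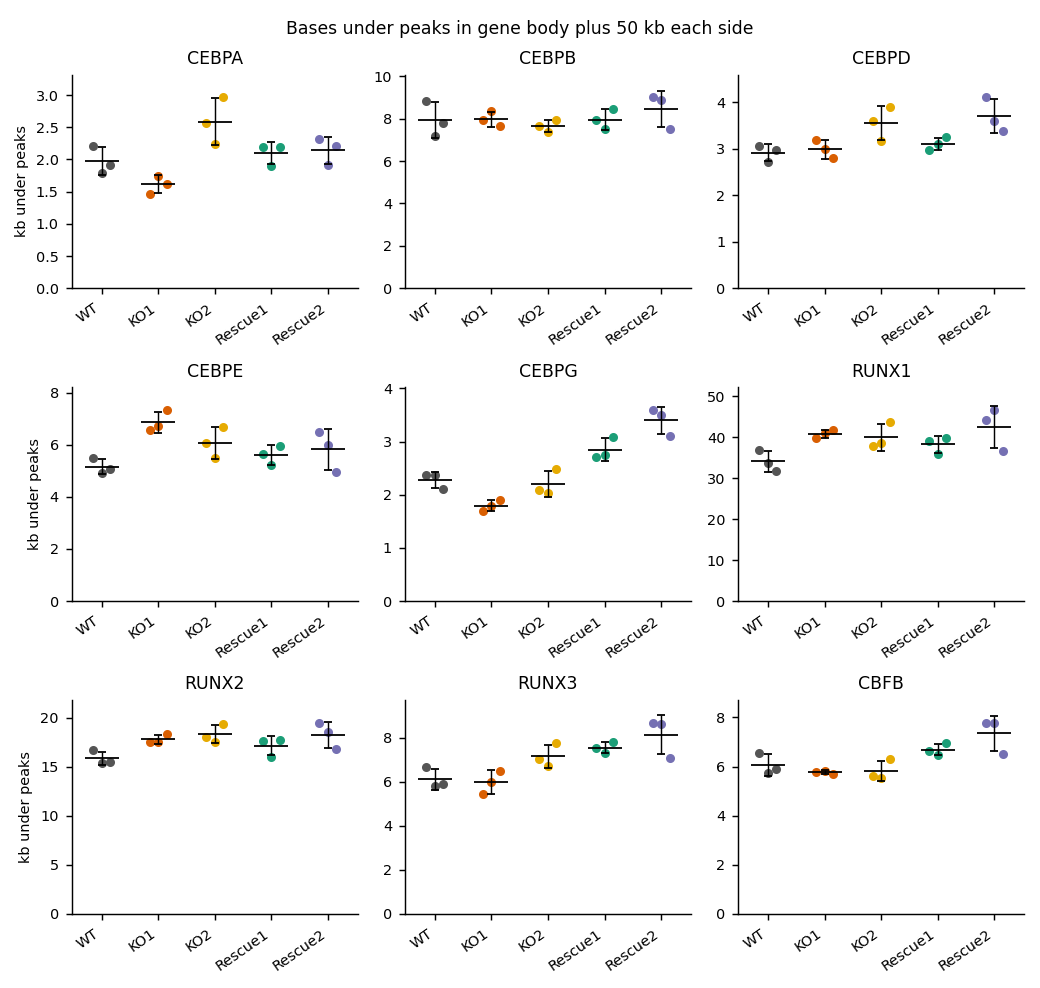
Kilobases under peaks (y axis, from 0) in each of the 9 windows for every library (points) by group (x axis), with the group mean (line) and SD (bar, n = 3). RUNX1 and RUNX2 stand higher in all 6 KO libraries than in all 3 WT libraries, CEBPG and CBFB stand higher in all 6 rescue libraries than in all 6 KO libraries, and CEBPA is low in KO1 and high in KO2.

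Most of the factor genes had an open start in every library. A region over the canonical transcript start held a peak in all 15 libraries at CEBPA, CEBPB, CEBPD, CEBPG, RUNX1, RUNX2 and CBFB, and so did the second promoters of RUNX1 and RUNX2. These start regions were strong within their lists, with mean percentiles of −log10 q from 59.9 at CEBPB to 91.0 at CEBPG. CEBPE and RUNX3 were the exceptions, since no consensus region lay within 100 bases of their canonical starts. Both had a region within 1 kb of another annotated start. At CEBPE, chr14:23120861-23121268 held a peak in all 15 libraries, at a mean percentile of 80.3. At RUNX3, chr1:24928756-24928968 held one in 14 libraries, at a mean percentile of 51.2. The distal start of RUNX3 carried a weaker region of 406 bp, at a mean percentile of 22.3, with a peak in 13 of 15 libraries (2 of 3 in KO1 and in KO2, 3 of 3 in the other groups).

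The distal promoters of RUNX2 and RUNX3 are shown because their letters hold matches to the RUNX motif itself. They are the 250 bases before the RefSeq start, on the strand of the gene (GRCh38.p14), with C/EBP matches (TTGCNNAA) and RUNX matches (TGTGGTT), each searched on both strands, in capitals. The RUNX2 stretch is chr6:45328080-45328329 on the plus strand and the RUNX3 stretch chr1:24965011-24965260 on the minus strand.
RUNX2 distal promoter: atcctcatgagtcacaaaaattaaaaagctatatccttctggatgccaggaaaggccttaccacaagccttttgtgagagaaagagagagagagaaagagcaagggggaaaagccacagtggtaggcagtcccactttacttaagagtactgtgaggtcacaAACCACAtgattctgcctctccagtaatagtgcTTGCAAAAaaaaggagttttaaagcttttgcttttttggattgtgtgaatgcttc
RUNX3 distal promoter: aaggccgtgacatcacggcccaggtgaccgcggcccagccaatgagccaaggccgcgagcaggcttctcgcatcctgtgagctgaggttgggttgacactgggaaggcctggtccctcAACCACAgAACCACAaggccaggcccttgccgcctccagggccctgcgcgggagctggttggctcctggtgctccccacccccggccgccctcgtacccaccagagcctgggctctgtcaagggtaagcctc
The RUNX3 stretch holds 2 RUNX matches in tandem, 132 and 124 bases before the start, and the RUNX2 stretch holds 1 RUNX match 88 bases before the start and 1 C/EBP match 55 bases before it. RUNX2 has the same tandem just after its start, at bases 16 and 24, chr6:45328340-45328364.
RUNX2 tandem site: caaacAACCACAgAACCACAagtgc
The RefSeq promoters of CEBPA, CEBPB, CEBPE and CEBPG and the proximal promoters of RUNX1, RUNX2 and RUNX3 held neither motif. A promoter here spanned the 250 bases before the start and the first 50 bases after it, so it was longer than the printed stretch. Of 35116 such RefSeq promoters, 4.27% held the RUNX match and 10.5% the C/EBP match. CEBPD, CBFB and the distal promoter of RUNX1 were not analysed here.

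RUNX1 and RUNX2 were the loci at which every KO library held more bases under peaks than every WT library. At RUNX1, WT libraries held 36910, 33846 and 31837 bases, KO1 39799, 40989 and 41839, and KO2 37787, 38551 and 43859. Rescue1 libraries held 39157, 35940 and 39824 and Rescue2 libraries 44270, 46626 and 36785. The lowest library of each rescue clone lay under the highest WT library. The mean was 34198 ± 2555 bases in WT (SD, n = 3) and 40471 ± 2234 in KO (n = 6), a log2 difference of 0.24, and the rescue mean of 40434 ± 4209 (n = 6) differed from KO by -0.01. The median gene rose by 0.11 from KO to rescue. After scaling, RUNX1 differed by -0.06 between rescue and KO, beside 0.05 for the median gene. The KO and WT groups did not overlap, while rescue overlapped both.
RUNX2 behaved alike. WT libraries held 16689, 15430 and 15487 bases, KO1 17537, 17565 and 18390, KO2 18038, 17599 and 19402, Rescue1 17665, 16048 and 17797, and Rescue2 19473, 18547 and 16831. KO was 0.19 higher than WT on the log2 scale, with no overlap of the groups, and rescue differed from KO by -0.03. The median gene differed by 0.11 there. After scaling, RUNX2 differed by -0.09 between rescue and KO, beside 0.05 for the median gene. Groups that do not overlap with KO higher made up 13.2% of the 19207 genes tested, against 2 of the 9 loci, and KO lower 11.9%, against 0 of the 9. With KO1 as the single knockout, 3 loci were higher (CEBPE, RUNX1 and RUNX2, beside 18.8% of all genes) and 2 lower (CEBPA and CEBPG, beside 23%). With KO2, 5 were higher (CEBPA, CEBPD and the RUNX genes, beside 17.4%) and 0 lower (beside 14.2%). With only peaks of −log10 q of at least 5, or only the 150000 highest ranked peaks, neither RUNX locus was separate. After scaling, RUNX2 and CEBPE were higher and CEBPG and CBFB lower in all KO libraries, while RUNX1 overlapped. RUNX1 also overlapped in the window around its canonical transcript, 361.5 kb in place of the 1317 kb that its longest annotated transcripts give.

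At RUNX3, WT libraries held 6653, 5785 and 5899 bases, KO1 5451, 6010 and 6507, and KO2 7040, 6695 and 7737. Rescue1 held 7533, 7295 and 7805 and Rescue2 8659, 8639 and 7100. KO1 therefore overlapped the WT libraries and KO2 lay above all of them, while all 6 rescue libraries lay above WT and KO1. CBFB, the partner subunit, had another course. Its WT libraries held 6572, 5732 and 5917 bases and its KO libraries 5792, 5826 and 5682 (KO1) and 5628, 5530 and 6290 (KO2), which overlap. All 6 rescue libraries lay above all 6 KO libraries, at 6638, 6488 and 6962 in Rescue1 and 7769, 7765 and 6524 in Rescue2, a log2 difference of 0.27.

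CEBPG showed the widest gap between rescue and KO among the 9 loci. KO1 held 1691, 1789 and 1904 bases and KO2 2088, 2036 and 2479, against 2704, 2743 and 3092 in Rescue1 and 3588, 3497 and 3111 in Rescue2. The WT libraries, at 2369, 2369 and 2102, lay above KO1, within the range of KO2 and below both rescue clones. Rescue was 0.62 higher than KO on the log2 scale, and KO 0.19 lower than WT with overlapping groups. Rescue above KO without overlap held for 2 of the 9 loci, CEBPG and CBFB, beside 12.8% of all genes, and rescue below KO for 0 of 9 beside 2.55%. Against KO2 alone, CEBPG and CBFB were again the 2 loci higher in rescue (beside 15.4%), with 0 lower (beside 3.35%). With 10 kb in place of 50 kb on each side, neither locus was separate, and with the 150000 highest ranked peaks CBFB was not. After scaling, RUNX3 joined them as higher and CEBPE was lower. The CEBPG start region itself did not grow, with 898 bases in WT, 984 in KO1, 937 in KO2, 935 in Rescue1 and 962 in Rescue2 on average. Of the 1125 bases by which rescue exceeded KO, 619 lay in the 5 regions that held a peak in all 15 libraries and 484 in the other 7 consensus regions. Among those was the region chr19:33368024-33368490, upstream of the gene. It covered on average 169 bases in WT, 82 in KO1, 327 in KO2, 389 in Rescue1 and 358 in Rescue2. KO2 thus lay closer to the rescue clones than to KO1 there. The window also holds PEPD, the gene of a prolidase. Apart from the start region, the regions with a peak in all 15 libraries lay past the 3′ end of CEBPG. Of these, chr19:33416281-33416739 covered on average 267 bases in WT, 121 in KO1, 158 in KO2, 353 in Rescue1 and 340 in Rescue2. In the same order chr19:33394195-33394779 covered 155, 130, 231, 230 and 515. Which gene these regions act on was not tested.

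CEBPE was the C/EBP locus with the largest KO against WT difference, 0.32 on the log2 scale, yet its groups overlapped. WT libraries held 5491, 4911 and 5075 bases, KO1 6551, 6718 and 7322, and KO2 6055, 5475 and 6674, so that the lowest KO2 library fell just under the highest WT library. Rescue1 held 5654, 5207 and 5957 and Rescue2 6502, 6008 and 4970, a log2 difference of -0.17 from KO. The window also holds ACIN1, C14orf119, CIROP and SLC7A8, and no region lay on the start of CEBPE itself. The largest rise was at chr14:23167072-23167866, with mean bases of 183 in WT, 667 in KO1 and 471 in KO2. In the same order chr14:23160944-23161446 covered 135, 418 and 290, and chr14:23155259-23155622 covered 78, 275 and 268. These regions lie over 35 kb upstream of the CEBPE start, beyond a region near a start of SLC7A8. Some regions fell, such as chr14:23127894-23128226 at 238, 173 and 138. Which gene these regions act on was not tested.

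The inflammatory members were CEBPB and CEBPD. CEBPB held 8848, 7163 and 7799 bases in WT, 7943, 8348 and 7650 in KO1, 7642, 7350 and 7918 in KO2, 7930, 7502 and 8448 in Rescue1 and 9003, 8864 and 7494 in Rescue2, and all groups overlapped. CEBPD held 3057, 2719 and 2970 bases in WT and 3196, 2987 and 2789 in KO1, and more in KO2, at 3584, 3170 and 3885. Its rescue clones held 2980, 3100 and 3241 (Rescue1) and 4100, 3593 and 3388 (Rescue2). KO2 lay above every WT library at CEBPD and KO1 did not.

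**Figure D2:**
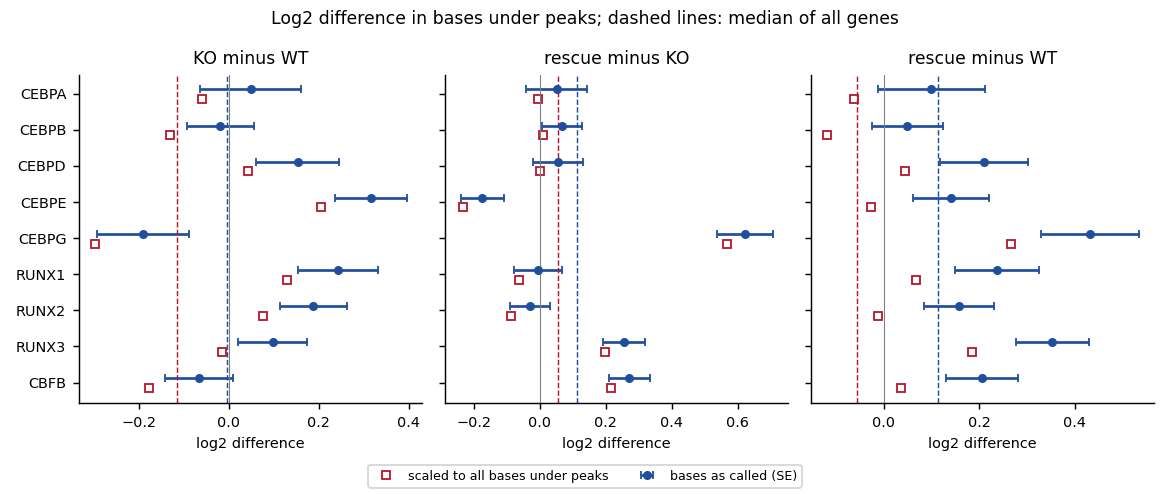
Log2 difference in bases under peaks (x axis) for each locus (y axis) in 3 comparisons, as called with SE (filled circles) and after scaling to the bases under all peaks of the library (open squares), with the median of all genes under each scale (dashed lines). In rescue minus WT every locus but CEBPA and CEBPB lies to the right of both medians, with CEBPG and RUNX3 furthest. CEBPA, CEBPB, CEBPE and RUNX2 lie left of 0 there after scaling.

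Rescue against WT asks how far the rescued clones stand from the parental line and does not enter the choice of genes, so it was tested with limma over 19207 genes. RUNX3, CEBPG, CBFB and RUNX1 held more bases under peaks in rescue than in WT, and no locus held fewer. The 4 calls of 9 stand beside 28.3% of all genes called higher and 3.16% called lower, and 2 loci without overlap beside 18% (higher) and 1.7% (lower). After scaling, RUNX3, CEBPG and RUNX1 were called higher and CEBPB lower. RUNX3 rose by 0.35 ± 0.08 (log2, SE; limma adjusted p = 0.000149), which is 0.24 above the median gene, and its 6 rescue libraries lay above its 3 WT libraries. CEBPG rose by 0.43 ± 0.10 (adjusted p = 0.000525), 0.32 above the median gene, again with no overlap. CBFB rose by 0.20 ± 0.08 (adjusted p = 0.0305) and RUNX1 by 0.24 ± 0.09 (adjusted p = 0.0313), 0.09 and 0.13 above the median gene, and both overlapped WT. After scaling, the distances from the median were 0.24 for RUNX3, 0.32 for CEBPG, 0.09 for CBFB and 0.12 for RUNX1.

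These calls differed in how firmly they held. RUNX3 stayed past the threshold under all 25 alternatives, CEBPG under all but Rescue1 alone (adjusted p = 0.0556), and CBFB and RUNX1 lost the call under 10 alternatives each. Leaving out WT replicate 2 alone, for example, gave adjusted p = 0.207 for CBFB and 0.118 for RUNX1, both by limma. RUNX2 (log2 difference 0.16, limma adjusted p = 0.0969), CEBPD (0.21, 0.0747) and CEBPE (0.14, 0.174) passed when Rescue2 replicate 3, the shortest Rescue2 list, was left out, which raised the calls from 4 to 7. CEBPA (0.10, limma adjusted p = 0.539) and CEBPB (0.05, 0.660) did not pass. The direction at CEBPB turned after scaling (-0.12, limma adjusted p = 0.0120), as did those of CEBPA, CEBPE and RUNX2 without passing the test, and at CEBPD it turned with 10 kb flanks (-0.24, limma adjusted p = 0.0318).

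The 2 KO clones were compared because each is a single clone. CEBPA held fewer bases in KO1 than in KO2, and no other locus passed. KO1 held 1468, 1749 and 1626 bases at CEBPA and KO2 2562, 2236 and 2964, against 2213, 1795 and 1914 in WT, 2200, 1896 and 2192 in Rescue1 and 2317, 1910 and 2202 in Rescue2. KO1 thus lay below every WT library and KO2 above every one, and the rescue clones lay within or just above the WT range. The difference of -0.64 ± 0.13 (log2, SE; limma adjusted p = 0.000269) stood beside 2.72% of all genes called lower in KO1 and 0.583% called higher, and it held under all 23 alternatives. RUNX3 (-0.25, limma adjusted p = 0.112) and CEBPG (-0.28, limma adjusted p = 0.296) missed the threshold, although their KO1 libraries all lay below their KO2 libraries. That made 3 loci without overlap and KO1 lower, beside 11.5% of all genes, and 0 with KO1 higher, beside 4.72%. After scaling, RUNX3 and CEBPG were also called lower and CEBPE higher in KO1 (log2 0.22, limma adjusted p = 0.00230), with the 150000 highest ranked peaks CEBPG (-0.49, limma adjusted p = 0.00696) and CEBPE (0.32, limma adjusted p = 0.0151) were called, and without Rescue2 replicate 3 RUNX3 was called (limma adjusted p = 0.0307).

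The CEBPA difference came mostly from distal regions downstream of the gene. The region over the start averaged 944 bases in KO1 and 992 in KO2. Of the 973 bases between the clones, 338 lay in the 2 regions held by all 15 libraries and 635 in the other 6. A region of 600 bp, chr19:33274060-33274659 and 28.2 kb downstream of the start, had no peak in the 3 KO1 libraries and one in all other 12. A second, chr19:33292676-33293031 and 9.68 kb downstream, was open in all 3 KO2 libraries and 1 KO1 library but never in WT or rescue. Between them lies the single CEBPA region lost in both knockouts, chr19:33291527-33291771 and 10.9 kb downstream, with a peak in all 3 WT libraries and in none of the 12 KO and rescue libraries. Its sequence is given because it marks a loss that rescue did not return, and it holds neither motif (hg38, plus strand).
CEBPA downstream region: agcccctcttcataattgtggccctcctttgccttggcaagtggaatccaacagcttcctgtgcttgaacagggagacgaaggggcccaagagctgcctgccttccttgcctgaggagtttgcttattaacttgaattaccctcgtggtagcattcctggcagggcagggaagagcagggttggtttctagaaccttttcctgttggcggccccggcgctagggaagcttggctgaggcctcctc

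Rescue1 and Rescue2 did not differ at any of the 9 loci by limma at an adjusted p of 0.05, beside 4.82% of all genes called lower in Rescue1 and 0.177% called higher. At an unadjusted p of 0.05, 2 loci passed, beside 3543 of the 19207 genes. They were CEBPD (-0.24 ± 0.11, log2 and SE) and CEBPG (-0.25 ± 0.12), and both were lower in all Rescue1 libraries than in all Rescue2 libraries. Such a lower group without overlap was seen for 13.9% of all genes, and the other way 0 loci stood beside 0.5%. Without Rescue2 replicate 3, CEBPD, CEBPG and RUNX1 passed the adjusted threshold, so the count of 0 rests on that library.

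Turning from bases to single regions, 41.6% (177 of 425) were covered in all 15 libraries, beside 35.6% of all consensus regions. By position, 283 lay in introns, 65 within 1 kb of a transcript start, 62 between genes and 15 in exons. A region was called gained in KO if all 6 KO libraries and no WT library held a peak. There were 16 gained regions and 7 lost ones, which is beside 4.79% and 2.48% of all consensus regions. Regions held by all 15 libraries had a median percentile of −log10 q of 71.8 within their lists, gained regions 43.8, lost regions 21.7 and the remaining 225 regions 22.2.

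RUNX1 accounted for 11 gained regions out of 16 and for 5 lost ones out of 7, and its long window had 192 of the 425 regions. All but 2 of these 16 lay in introns of the annotated gene, from 955 kb upstream to 91.8 kb downstream of the nearest basic start, and 5 gained and 2 lost regions lay within 50 kb of the canonical transcript. Of the 11 gained regions, 7 kept a peak in all 6 rescue libraries and 0 had none, beside 17.1% of all gained regions without a peak in any rescue library. Of the 5 lost regions, 3 had no peak in any rescue library, beside 41.7% of all lost regions. The strongest gained RUNX1 region was chr21:34813485-34813953, 469 bp wide and 73.5 kb downstream of the nearest annotated start, which itself had no region, at a mean percentile of 76.3.

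Over the 9 loci, 10 of the 16 gained regions were kept by all 6 rescue libraries (62.5%, beside 44.7% of all gained regions), and 0 of the 7 lost regions returned in all 6 (beside 12.7%). RUNX2 gained 1 region and lost 1. The gained one, chr6:45541955-45542212 in an intron 120 kb downstream of the proximal start, held a peak in all 12 KO and rescue libraries and in no WT library. The lost one, chr6:45507326-45507482, returned in 1 library of each rescue clone. At CEBPB, chr20:50241287-50241545 was gained and kept in all rescue libraries, at the far edge of the window. At CEBPE, chr14:23147784-23147969 near a start of SLC7A8 was gained, absent in Rescue1 and held by 2 of 3 Rescue2 libraries. RUNX3, CEBPG and CBFB gained and lost no region.

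The full sequence of changes that chose these genes, a gain in KO that rescue took away, was met by 1 of the 425 regions, beside 0.818% of all consensus regions. It was chr8:47725950-47726174 in an intron of SPIDR, a gene of homologous recombination, 12.1 kb downstream of the CEBPD start, with peaks in all 6 KO libraries and in none of the 9 WT and rescue libraries. The opposite course, lost in KO and regained in all 6 rescue libraries, was met by 0 of 425, beside 0.314%. The second gained region in the CEBPD window, over an exon of PRKDC, was kept by all rescue libraries.

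The count of reversed regions depended on the calling rule. With a majority of libraries in place of all, 10 regions qualified, beside 3.16% of all, and 5 of them lay in RUNX2 introns. The same rule gave 41 gained regions (beside 10.8%), 24 lost (beside 8.31%) and 2 lost and regained (beside 1.9%). With KO2 as the single knockout, the clone whose prefix the rescue names carry, 7 qualified, beside 1.59% of all, with 4 at RUNX2 and 1 each at CEBPA, CEBPD and RUNX1. KO2 alone gave 33 gained regions (beside 8.34%), 9 lost (beside 3.23%) and 0 lost and regained (beside 0.411%). Named after their values were seen, chr6:45472480-45472701 and chr6:45538812-45538955 of RUNX2 were open in all 3 KO2 and 2 of 3 KO1 libraries and never in WT or rescue, at mean percentiles of 14.97 and 14.36 within their lists.

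Rescue also differed from WT in 18 regions held by all 6 rescue libraries and no WT library, beside 4.48% of all, and in 8 held by all WT and no rescue library, beside 2.09%. Of the 18, 1 had no peak in the KO libraries either, chr20:50192861-50193048, just past the 3′ end of CEBPB and 2.12 kb downstream of its start. Whatever WT held, it was the 1 region of the 9 loci with all 6 rescue and no KO library, beside 0.91% of all. The converse, all KO and no rescue library, was met by 1 region, at CEBPD, beside 1.24%. KO1 and KO2 differed fully in 12 regions, 10 with KO2 alone (beside 2.55%) and 2 with KO1 alone (beside 1.05%). Rescue1 and Rescue2 differed fully in 6, of which 1 had Rescue1 alone (beside 0.732%) and 5, all at RUNX1, Rescue2 alone (beside 2.47%). At RUNX3, chr1:24925107-24925374 in an intron 5.04 kb downstream of the canonical start and chr1:25003504-25003846, 38.7 kb upstream of the distal start, were absent in KO1 and present in the other 12 libraries.

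**Figure D3:**
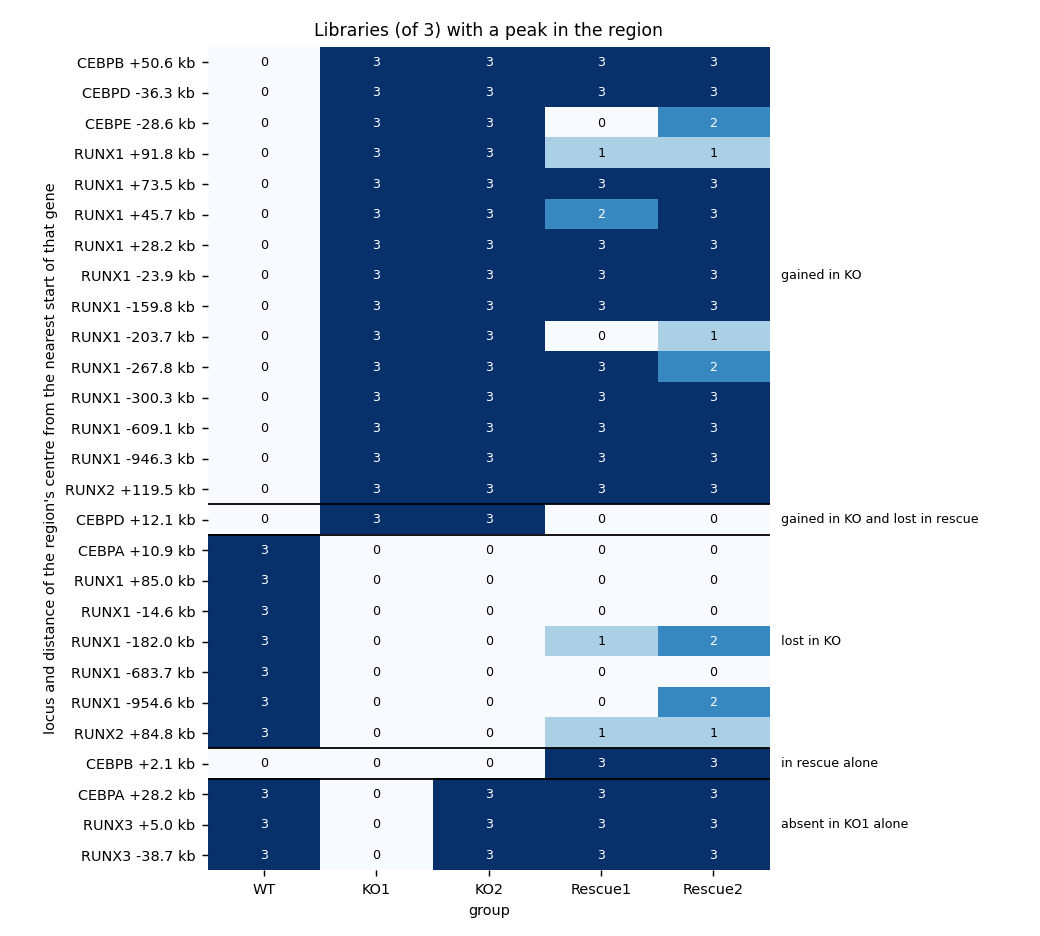
Number of libraries of 3 with a peak (shade and digit) by group (x axis) for the 23 regions gained or lost in KO, the region held by rescue alone and the 3 absent in KO1 alone (rows, named by locus and distance in kb from the nearest start of that gene). Of the 16 gained rows, 10 stay at 3 in both rescue clones and 1, at CEBPD, falls to 0.

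The regions printed next were chosen for what they show across the groups, each in hg38 on the plus strand with C/EBP and RUNX matches in capitals. The RUNX1 region at 35252980 was gained in KO and kept by 1 of 6 rescue libraries, and it is the gained region under 300 bp that holds both motifs. Its mean percentile of −log10 q, 13.7, was the lowest of the gained regions. The RUNX1 region at 35995532 was gained and kept by all 6 and holds a RUNX match. The RUNX1 region at 35732866, beside the start of the gene ENSG00000230794, was lost in KO and in rescue and holds a C/EBP match. The RUNX2 region at 45541955 (gained and kept) and the CEBPB region at 50192861 (in rescue alone) hold neither motif.
RUNX1 chr21:35252980-35253198: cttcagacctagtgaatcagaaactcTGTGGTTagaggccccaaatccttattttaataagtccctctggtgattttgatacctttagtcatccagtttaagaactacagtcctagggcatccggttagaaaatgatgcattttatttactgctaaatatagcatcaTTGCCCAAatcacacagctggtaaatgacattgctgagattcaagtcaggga
RUNX1 chr21:35995532-35995807: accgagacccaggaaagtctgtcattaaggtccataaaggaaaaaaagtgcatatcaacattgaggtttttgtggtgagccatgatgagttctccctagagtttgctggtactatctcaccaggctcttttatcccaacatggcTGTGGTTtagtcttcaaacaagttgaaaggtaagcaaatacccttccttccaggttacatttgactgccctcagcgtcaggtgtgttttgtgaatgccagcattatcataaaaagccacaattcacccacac
RUNX1 chr21:35732866-35733156: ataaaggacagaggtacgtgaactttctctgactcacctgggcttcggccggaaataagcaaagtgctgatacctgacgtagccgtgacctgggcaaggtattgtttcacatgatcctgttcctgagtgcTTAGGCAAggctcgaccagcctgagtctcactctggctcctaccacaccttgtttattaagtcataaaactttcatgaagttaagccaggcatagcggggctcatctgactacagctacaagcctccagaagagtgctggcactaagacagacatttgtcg
RUNX2 chr6:45541955-45542212: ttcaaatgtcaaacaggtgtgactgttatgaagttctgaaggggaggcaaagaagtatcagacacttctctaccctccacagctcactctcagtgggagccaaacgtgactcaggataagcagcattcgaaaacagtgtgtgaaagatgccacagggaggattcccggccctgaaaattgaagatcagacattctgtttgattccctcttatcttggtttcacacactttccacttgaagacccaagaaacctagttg
CEBPB chr20:50192861-50193048: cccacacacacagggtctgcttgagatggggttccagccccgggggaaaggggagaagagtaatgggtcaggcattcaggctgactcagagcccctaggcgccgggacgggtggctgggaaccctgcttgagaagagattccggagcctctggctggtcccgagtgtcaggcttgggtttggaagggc
RUNX1 also gained chr21:35208845-35209525, which holds 2 C/EBP matches in 681 bp, and chr21:35349391-35349987, which holds 1 match of each kind in 597 bp. Both kept a peak in all 6 rescue libraries.

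Across the 9 loci the factors' own motifs were about as frequent as elsewhere. In the 200 bases around the region centre, TTGCNNAA was found in 44 of 425 regions (10.4%), beside 10.4% of all consensus regions, and TGTGGTT in 32 of 425 (7.53%), beside 8.02%. The C/EBP letters can overlap the octamer of POU factors where AA follows it on 1 strand, so a match is not specific to C/EBP. Regions with a peak in all 15 libraries held the C/EBP letters in 23 of 177 cases, beside 9.18% of all such regions. By locus, RUNX2 held the most RUNX matches per region among loci with over 20 regions, 11 of 86, CEBPB the most C/EBP matches, 5 of 32, and CEBPD held neither motif in its 14 regions. The 16 gained regions held the C/EBP letters in 2 and the RUNX letters in 2 cases, beside 13.6% and 11.8% of all gained regions. In the central 100 bases these counts were 0 and 1, beside 7.08% and 7.18%. The full palindrome TTGCGCAA was found in 0 of the 425 windows, beside 0.0664% of all.

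**Figure D4:**
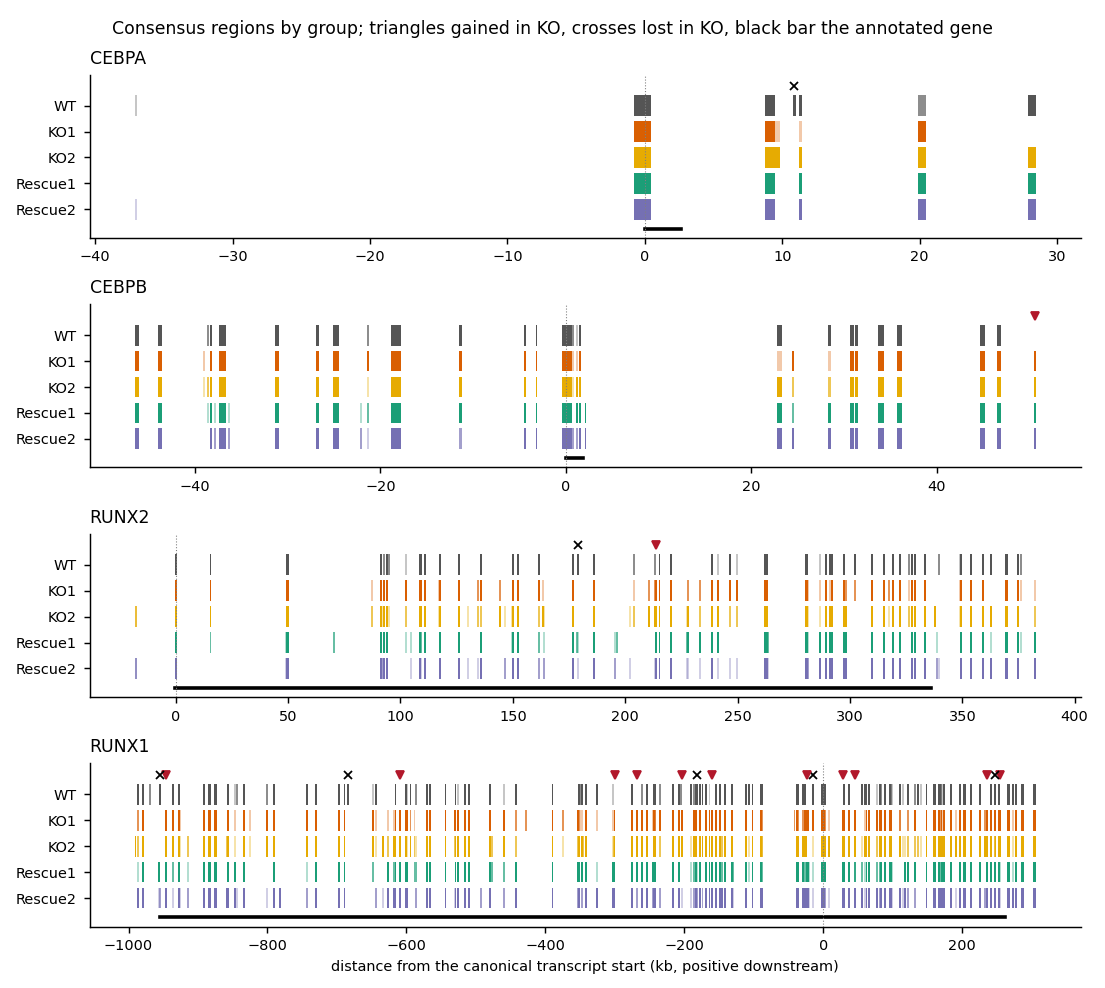
Consensus regions (bars, narrow ones widened to a minimum so that they can be seen) by group (rows) against distance from the canonical start in kb (x axis, positive downstream) at CEBPA, CEBPB, RUNX2 and RUNX1, with paler bars where fewer of the 3 libraries hold a peak, triangles for gained and crosses for lost regions, and the annotated gene as a black line. CEBPA shows the region at 28.2 kb missing in KO1, and RUNX1 shows its 11 gained and 5 lost regions spread over the annotated gene.

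Genes that work with or under these factors were read from lists, in the same windows. The lists were chosen with earlier results of these data known. Among 9 RUNX and CBF cofactors, 4 rose and 0 fell in rescue against WT, beside 28.3% and 3.16% of all genes. The list median was 0.18 beside 0.11 for all genes. RUNX1T1, the corepressor that is fused to RUNX1 in acute myeloid leukaemia, stood apart. Its WT libraries held 1444, 1150 and 1593 bases, its KO1 libraries 4851, 5131 and 5506, its KO2 libraries 5744, 5688 and 6063, its Rescue1 libraries 4869, 5271 and 5479 and its Rescue2 libraries 6085, 6981 and 5623. It rose by 1.96 ± 0.09 (log2, SE; limma adjusted p = 1.20e-35) in rescue against WT, and KO differed from WT by 1.91. Of its 35 consensus regions, 7 were gained in KO, beside 4.79% of all consensus regions. Of those 7, 6 were held by all rescue libraries, beside 44.7% of all gained regions. CBFA2T3 (0.45 ± 0.10, adjusted p = 0.000257), TLE4 (0.23 ± 0.08, 0.0162) and CBFA2T2 (0.23 ± 0.07, 0.00894) were the other limma calls, while the TLE family members TLE1 and TLE3 did not pass.

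Among 10 C/EBP partners and related bZIP factors, DBP rose (0.28 ± 0.08, limma adjusted p = 0.00253) and TRIB2, a pseudokinase that promotes loss of CEBPA protein, fell (-0.30 ± 0.11, 0.0237) in rescue against WT, with a list median of 0.00. TRIB2 held 2298, 2143 and 2455 bases in WT, 2454 to 3118 in the 6 KO libraries and 1416 to 2403 in the 6 rescue libraries, so that rescue lay below KO without overlap. DDIT3, the stress-induced C/EBP family member, held 4847 to 6256 bases in WT, 4229 to 4846 in KO and 4873 to 6564 in rescue, so that KO lay below both by a narrow margin. In this list 1 gene was higher and 2 lower in all KO than in all WT libraries, beside 13.2% and 11.9% of all genes. Rescue against KO gave 1 higher and 1 lower without overlap, beside 12.8% and 2.55%. HLF, a bZIP factor, was lower in Rescue1 than in Rescue2 (-0.38 ± 0.10, limma adjusted p = 0.00954).

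Of 10 C/EBP target genes, 4 rose and 0 fell in rescue against WT by limma. They were CCL2 (0.38 ± 0.08, adjusted p = 0.000171), IL1B (0.36 ± 0.08, 0.000184), IL6 (0.27 ± 0.09, 0.00976) and PTGS2 (0.36 ± 0.13, 0.0222). The list median of 0.07 lay under the 0.11 of all genes, and CXCL8, LCN2, SAA1, SAA2, C3 and HP did not pass. CCL2 was already higher in all KO than in all WT libraries, by 0.52. HP, the acute-phase haptoglobin, took the reverse course, at 4229, 3962 and 3866 bases in WT, 2133 to 2854 in the 6 KO libraries and 2953 to 5223 in the 6 rescue libraries. Of these 10 genes, 1 was higher and 2 lower in all KO than in all WT libraries, beside 13.2% and 11.9% of all genes. Rescue against KO gave 1 higher and 1 lower without overlap, beside 12.8% and 2.55%. HP, named with SAA1 after their values were seen, was also lower in Rescue1 than in Rescue2 (-0.49 ± 0.11, limma adjusted p = 0.00161), as was SAA1 (-0.36 ± 0.12, 0.0497).

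Of 10 RUNX target genes, 4 rose and 1 fell in rescue against WT by limma, with a list median of 0.14. BGLAP, which encodes osteocalcin, rose by 0.30 ± 0.08 (adjusted p = 0.00252), ITGA5 by 0.28 ± 0.07 (0.00181), CSF1R by 0.27 ± 0.07 (0.00259) and COL10A1 by 0.27 ± 0.10 (0.0282), while VEGFA fell by 0.21 (0.0274). CSF2, named after its value was seen, was lower in KO1 than in KO2 (-0.32 ± 0.09, limma adjusted p = 0.0305). Beside each list the background of 28.3% called higher and 3.16% called lower applies in rescue against WT. For the calls between clones, 4.82% of all genes were lower in Rescue1 and 2.72% lower in KO1. All list values are on unscaled bases. After scaling, the split over all genes in rescue against WT turned to 3214 higher and 6467 lower.

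**Figure D5:**
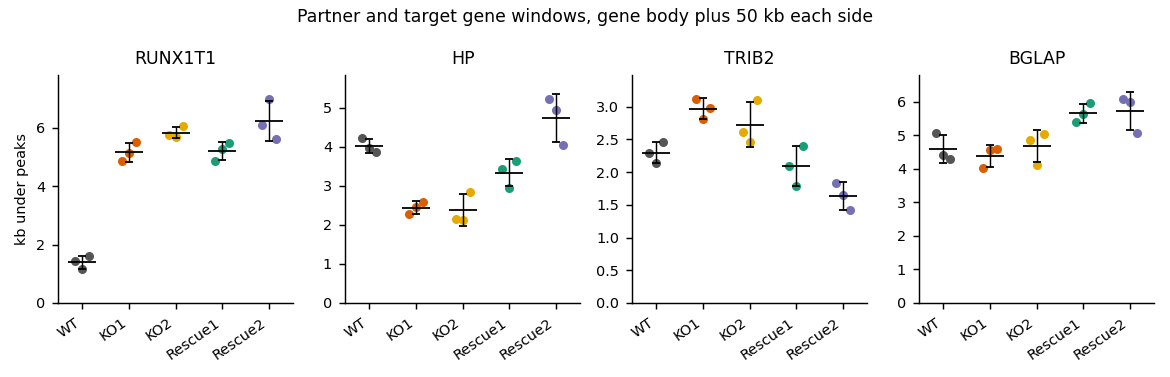
Kilobases under peaks (y axis, from 0) by group (x axis) in the windows of RUNX1T1, HP, TRIB2 and BGLAP, with each library (points), the mean (line) and SD (bar, n = 3). RUNX1T1 stands at 1150 to 1593 bases in WT and at 4851 to 6981 in the 12 other libraries.

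Across the 15 libraries, the protein-coding gene on another chromosome whose window varied most like each factor was COL6A1 for RUNX3 (Pearson r = 0.99), FAM180B for CBFB (0.98), TTLL11 for CEBPG (0.98), KREMEN1 for RUNX1 (0.97), COASY for CEBPB (0.96), IL2RA for RUNX2 (0.96), DMD for CEBPE (0.96), RASSF2 for CEBPD (0.93) and NEUROG3 for CEBPA (0.84). Each is the highest of a search over the tested genes, and the points share the length of each library's list, so they describe likeness in these libraries alone.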

How the data were processed

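Peak lists of 15 ATAC-seq libraries were used. Per the labels and the study's methods, the authors aligned reads to hg38 with BWA (0.7.17 in the labels' processing notes, another version in the methods) and called peaks per library with MACS2 2.2.7.1, without pooling. Each deposited list gives intervals and the −log10 q of each peak, which served for ranking and filtering, together with a score, a fold enrichment and a −log10 p that were not used. Duplicate removal was not given in the sources used here. Read counts are not in the lists, so no counting interval was computed.

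Only autosomal, X and Y peaks entered. Bases under peaks were summed in each protein-coding gene of GENCODE v44 plus 50 kb each side, and log2(bases + 100) of the 19207 genes with a mean of at least 500 bases was fitted with limma 3.58.1 (R 4.3.3), 1 coefficient per group, trended variance and Benjamini-Hochberg adjustment over all genes, called at 0.05. Rescue was the mean of both rescue clones and KO the mean of both KO clones. The fit was tested on simulated data. Motifs were searched in hg38, and promoters came from RefSeq (GRCh38.p14). All 9 genes are named, with reversed regions, regions at transcript starts and up to 4 genes per list. HP, SAA1, VEGFA and CSF2 were named beyond that number after their values were seen, since they passed a test, and further members are named only as not passing. The members and lists were chosen with earlier results of these data known. Alternatives were 10 kb flanks, −log10 q of at least 5, the 150000 highest ranked peaks, scaling to the library total, another pseudocount, no filter, 1 clone alone, a stricter share of a region covered, a majority rule, other motif windows, a replicate block and each library left out. Some cell type markers are not reported here.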

Additional observations from a re-analysis of the deposited data

Results flagged for a closer look

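CEBPA stood out for a difference between the KO clones under the same comparison with WT. Its window held fewer bases under peaks in KO1 than in KO2 (log2 difference -0.64, limma adjusted p = 0.000269), with all 3 KO1 libraries below all 3 WT libraries and all 3 KO2 libraries above them. No library of the KO or rescue sets stood far from the others of its set at any of the 9 loci, in 18 sets examined.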

How the results depend on the processing

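Peak lists limit these results to what passed the caller's threshold, and the lists differ in length. Replicate numbers did not pair the libraries (median correlation of same-numbered deviations 0.00, range -0.18 to 0.09, n = 30), and a replicate block left 4 calls in rescue against WT, 1 in KO1 against KO2 and 0 in Rescue1 against Rescue2. For the 9 loci, the 150000 highest ranked peaks gave 2 calls in rescue against WT, 3 in KO1 against KO2, 1 separate locus in KO against WT and 1 in rescue against KO. Scaling to the library total gave 4, 4 and 4 for KO1 against KO2, KO against WT and rescue against KO. Peaks with −log10 q of at least 5 gave 0 separate loci in KO against WT and 1 in rescue against KO, 10 kb flanks gave 0 in rescue against KO, and Rescue1 alone gave 1 call. KO1 alone and KO2 alone each gave 5 separate loci. Windows around the canonical transcript, added after the data were seen because of the long RUNX1 annotation, gave 1 separate locus in KO against WT, 10 gained, 4 lost and 15 regions between rescue and WT. The majority rule gave 41 gained, 24 lost, 10 reversed, 2 lost and regained and 76 regions between rescue and WT, and KO2 alone, also added later, gave 33 gained and 7 reversed. The stricter coverage of a region gave 11 lost regions. Reversed regions numbered 2 with −log10 q of at least 5 and 0 with the highest ranked peaks or 10 kb flanks. Within 100 bases the C/EBP letters were in 5.41% and the RUNX letters in 4.71% of regions. Within 200 bases TTGCGCAA and TGTGGT were in 0% and 20%. Leaving out 1 library gave 2 to 3 separate loci in KO against WT and in rescue against KO, 2 to 7 calls in rescue against WT, 1 to 2 in KO1 against KO2, 0 to 3 in Rescue1 against Rescue2, 16 to 21 gained, 7 to 10 lost, 1 to 3 reversed, 0 lost and regained and 26 to 32 between rescue and WT. Reversed regions numbered 3 without KO1 replicate 1 and 2 without Rescue2 replicate 2. The 2 calls in rescue against WT arose without WT replicate 2, WT replicate 3, Rescue1 replicate 3, Rescue2 replicate 1 or Rescue2 replicate 2, and 7 without Rescue2 replicate 3, which also gave the 2 and 3 calls between clones. CEBPB turned to -0.12 (adjusted p = 0.0120) after scaling and CEBPD to -0.24 (0.0318) with 10 kb flanks in rescue against WT. The causes were not tested.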
